A study of Mus musculus with 8 samples.

Results

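The genes described here encode receptors that were first known from natural killer (NK) cells and that T cells can also carry. They are 10 of the 25078 gene rows of the deposited tables: Klrk1, Klrc1, Klrc2, Klrd1, Klrg1, Klrb1c, Klre1, Crtam, Cd226, and Hcst, which encodes the signalling partner of the Klrk1 product. The genes were selected on their link to Klrk1, which was chosen by its higher level in STAT3ko than in WT CD4 T cells. The values of that comparison are therefore given as a description. Members that passed its test are counted beside the share of all genes, and nothing is read from that count. RNA was sequenced from donor T cells in the spleen of BALB/c mice on day 6 after hematopoietic cell transplantation. All recipients were WT, had been lethally irradiated and had received T cell-depleted WT C57BL/6 bone marrow in addition to the donor T cells. The donors were C57BL/6 mice, either WT or STAT3ko, in which the Cd4-Cre transgene deletes a floxed part of Stat3, in CD4 as well as CD8 T cells. Cells with donor-type H-2Kb and TCRβ were sorted into CD4 and CD8 T cells, so that each genotype had a CD4 and a CD8 group, 4 groups in all, with 2 libraries each. The cells of several recipients were pooled for a library, according to the methods, and the age of the mice was not given in the sources used here. The p-values below therefore measure the spread between pools. In the main fit this spread includes any shift common to libraries of the same replicate number, which a fit with a replicate block takes out.

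NK receptors let a killer cell weigh activating against inhibitory signals from a target cell. NKG2D, the product of Klrk1, binds stress-induced ligands of the Raet1, H60 and Ulbp1 families and signals through the adaptor DAP10, the product of Hcst. CD94, the product of Klrd1, pairs with an NKG2 chain: with NKG2A, from Klrc1, the pair is inhibitory, and with NKG2C, from Klrc2, it is activating, while both recognize the nonclassical MHC molecule Qa-1 (H2-T23). Activated CD8 T cells are known to express several of these receptors, and CD4 T cells express them less commonly.

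Klrk1, Klrc1, Klrc2, Klrd1, Klre1 and Klrb1c lie in the NK gene complex on chromosome 6, a stretch of lectin-like receptor genes. Of the 10 members, 6 had a window before the start of transcription in the RefSeq table (build GRCm38.p6). The window of Klrk1, on which the choice of genes rests, and that of Klre1 are shown because they held the only matches to the motifs searched, which were a STAT motif (TTCNNNGAA), a T-box motif (GGTGTGA) and a RUNX motif (TGTGGTT), each on both strands, and the matches did not overlap. The windows are the 250 bases before the start, written 5′ to 3′ on the strand of the gene, with the RUNX match in capitals. The Klrk1 window is at chr6:129623865-129624114 on the minus strand and the Klre1 window at chr6:129577963-129578212 on the plus strand.
Klrk1: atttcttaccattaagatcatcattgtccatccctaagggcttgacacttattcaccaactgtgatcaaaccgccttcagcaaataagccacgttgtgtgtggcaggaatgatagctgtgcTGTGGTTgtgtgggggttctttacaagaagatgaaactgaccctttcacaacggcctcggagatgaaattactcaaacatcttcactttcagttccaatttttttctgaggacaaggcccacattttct
Klre1: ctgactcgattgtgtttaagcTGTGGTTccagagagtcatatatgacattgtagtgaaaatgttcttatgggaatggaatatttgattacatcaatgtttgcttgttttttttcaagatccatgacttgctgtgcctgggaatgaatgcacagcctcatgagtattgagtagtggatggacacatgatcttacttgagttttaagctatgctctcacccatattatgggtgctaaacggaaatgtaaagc
The RUNX match began 129 bases before the start of Klrk1 and 229 bases before the first of the 2 RefSeq starts of Klre1. The RUNX letters occurred in 4.40% of 32851 promoter windows of this length, the STAT letters in 7.02% and the T-box letters in 3.33%. A match is a description of these letters and not a binding site.

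Klrc1 and Klrc2 are close copies of each other, and the longest run that their coding sequences share is shown because reads from it cannot tell the genes apart. It has 124 bases, longer than the 51-base reads, and spans 2 coding exons in each gene, at chr6:129677203-129678299 in Klrc1 and chr6:129658722-129659981 in Klrc2, both on the minus strand (GENCODE annotation, GRCm38).
Klrc1 and Klrc2: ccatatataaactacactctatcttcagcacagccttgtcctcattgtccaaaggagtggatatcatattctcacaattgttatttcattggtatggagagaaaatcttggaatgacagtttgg
Of all 51-base windows of the annotated Klrc1 transcripts, 36.0% were identical in Klrc2, and 963 of 6007 of those of Klrc2 occurred in another gene. For Klrb1c the share was 16.8%, or 505 windows, of which 370 occurred in Gm44511. That gene is annotated on the same strand to 13.9% of the exon bases of Klrb1c and has no row among those of the complex. Fewer Klrb1c windows occurred in Klrb1a (102) and Klrb1b (70), which have rows of their own. The counts of Klrc1 and Klrc2 are therefore uncertain, and those of Klrb1c to a smaller degree. The Klrc2 windows came from 5812 annotated exon bases, while the deposited Klrc2 row covers 782 exon bases. The part of those counted bases that is shared was not measured and may be larger. The other 7 members shared at most 0.252% of their windows.

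The libraries held between 20171396 and 23282757 counts. Levels are given in CPM, which TMM scaling makes comparable between libraries, and 3 counts, the upper limit behind a count of 0, stood for 0.129 to 0.149 CPM (counting error only). Stat3 was at 436 and 428 CPM in WT CD4, 138 and 141 CPM in STAT3ko CD4, 431 and 436 CPM in WT CD8 and 120 and 143 CPM in STAT3ko CD8 libraries, so all 8 libraries matched their genotype label. Cd4 was at 1361 to 1602 CPM in CD4 libraries and 1.04 to 8.16 CPM in CD8 libraries, and Cd8b1 was at 900 to 1048 CPM in CD8 libraries and 16.7 to 36.1 CPM in CD4 libraries. The 10 T cell markers summed to 6413 to 7418 CPM.

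In the comparison on which the genes were picked, Klrk1, Klrg1, Klre1, Cd226, Klrd1 and Klrc2 were higher in both STAT3ko CD4 than in both WT CD4 libraries, and Crtam was lower, which is a description. Klrk1 and Cd226 passed the test as higher in STAT3ko CD8 T cells, by 1.73-fold and 1.48-fold, where 1.34% of all genes were called higher. Between CD8 and CD4 T cells, 8 members passed the test as higher in WT donors, against 12.2% of all genes, and 5 in STAT3ko donors, against 5.84% of all genes. These comparisons share the WT CD4 or the STAT3ko CD4 libraries with the one that picked the genes. Hcst and Klrb1c passed the test neither in CD8 T cells nor between the lineages. In libraries of many cells, more cells with a receptor and more RNA for it in each cell cannot be told apart.

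**Figure D1:**
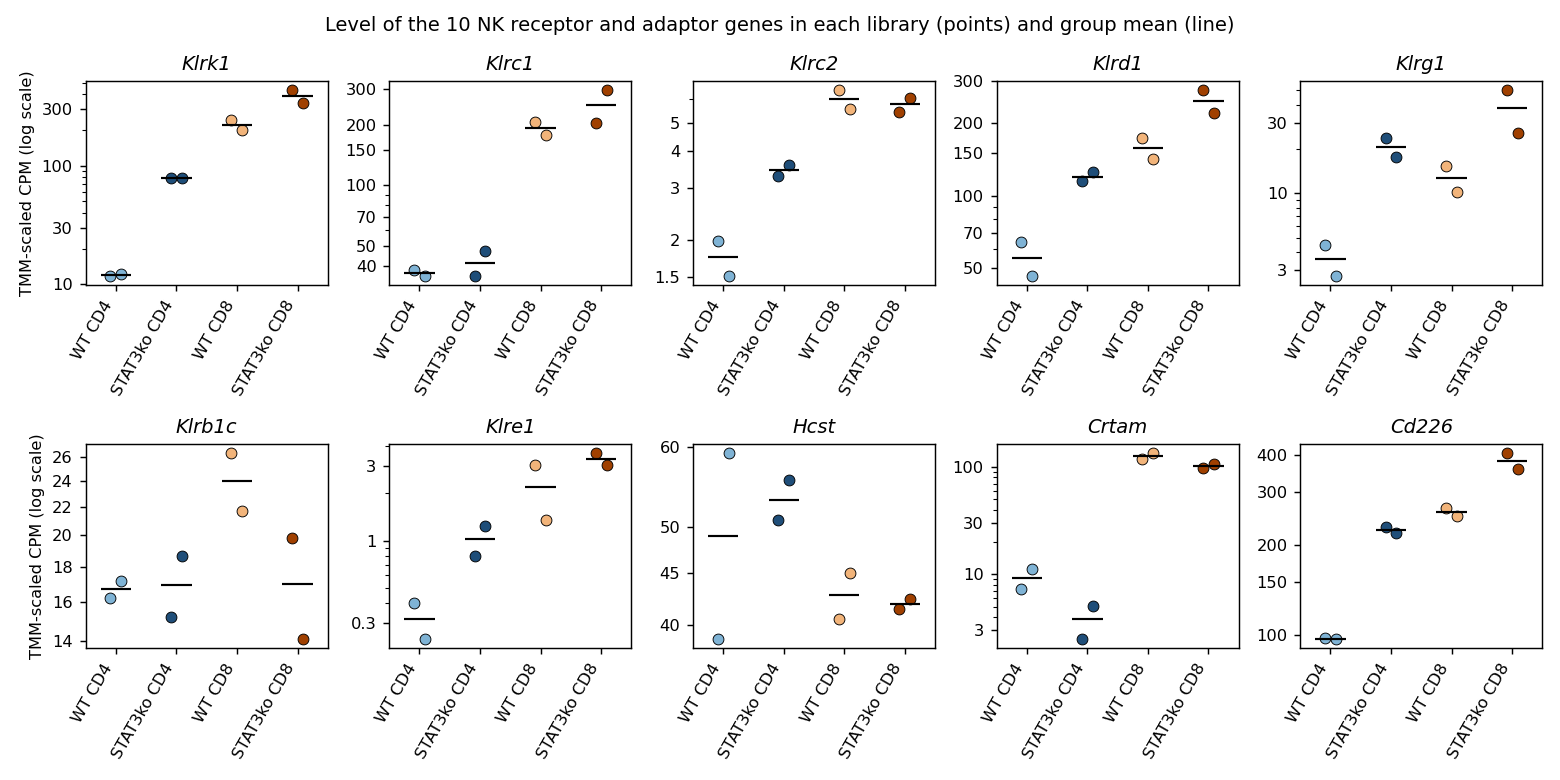
Level of each gene in TMM-scaled CPM (log scale, a separate axis for each gene), with 1 point for each of the 8 libraries and a line at the group mean. Klrk1, Klrc2, Klrd1, Klrg1, Klre1 and Cd226 are higher in both STAT3ko CD4 than in both WT CD4 libraries, whereas Hcst stays between 38.8 and 59.2 CPM in the 8 libraries.

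STAT3ko against WT in CD4 T cells, the comparison on which the genes were picked, had 6 of 10 members past an adjusted p of 0.05, 5 of them higher and Crtam lower. Over all 12428 genes tested it called 11.6%, and 6.54% as higher, and nothing is read from the members' count beside these shares. The groups did not overlap for 7 members, as for 53.5% of all genes. The median log2 fold change of the members was 1.05, against 0.017 over all genes.

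For STAT3ko against WT in CD8 T cells, the levels came from 4 libraries that the choice did not use, while the test took its estimate of the spread from all 8. Klrk1 and Cd226, 2 of 10 members, were called, both higher, against 2.07% of all genes, and 1.34% of all genes as higher. The groups did not overlap for 6 members, close to the 49.7% of all genes, and the median log2 fold change was 0.47, against -0.0071 over all genes. Both calls stood near the threshold. With the block 4 members were called, where that fit called 2258 of 12428 genes, 1278 of them higher. The count of members called was 0 when only the 4 CD8 libraries were fitted. No direction changed for Klrk1, Cd226, Klrd1 or Klrg1 in any alternative.

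**Figure D2:**
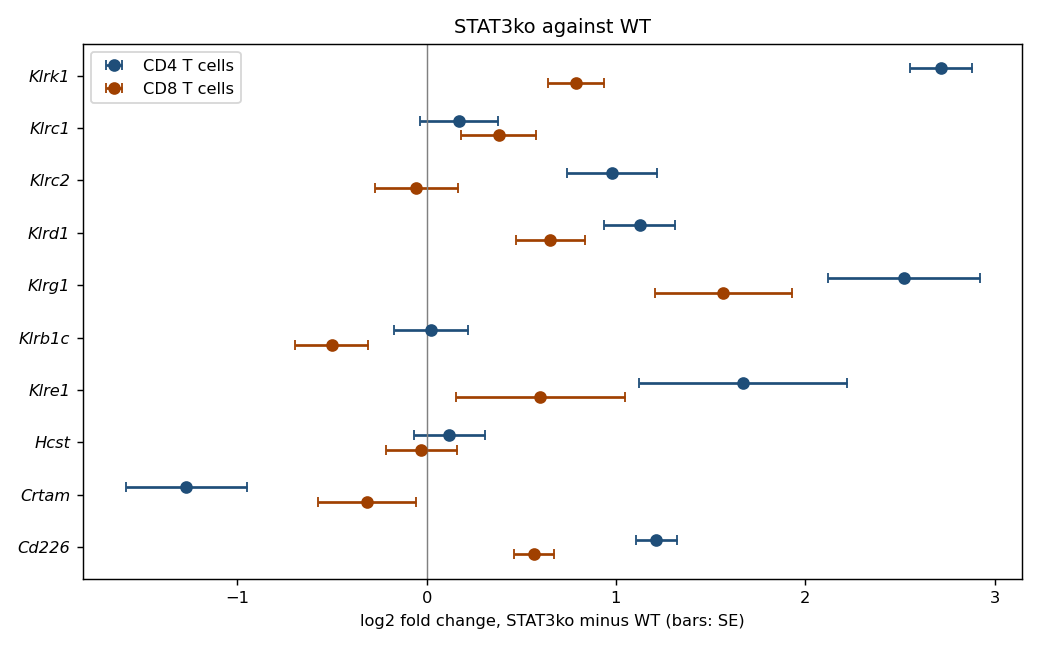
Log2 fold change of STAT3ko against WT for each gene, with bars of 1 SE, in CD4 T cells (blue) and CD8 T cells (brown). The CD4 value is the higher of the pair for all genes but Klrc1 and Crtam, and Crtam lies below 0 in both cell types.

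CD8 and CD4 T cells were compared within each genotype. In WT donors 8 of 10 members were called, all higher in CD8 T cells, against 23.8% of all genes called and 12.2% called higher. The groups did not overlap for 9 members, against 59.3% of all genes, and the median log2 fold change was 1.80, against 0.0011 over all genes. In STAT3ko donors 5 members were called, all higher, against 12.5% of all genes called and 5.84% called higher. With the block 8 members were called, where that fit called 3689 of 12428 genes, 1789 of them higher. The groups again did not overlap for 9 members, against 58.3% of all genes, with a median of 0.96 against 0.0018. These comparisons share the WT CD4 or the STAT3ko CD4 libraries with the comparison that picked the genes.

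**Figure D3:**
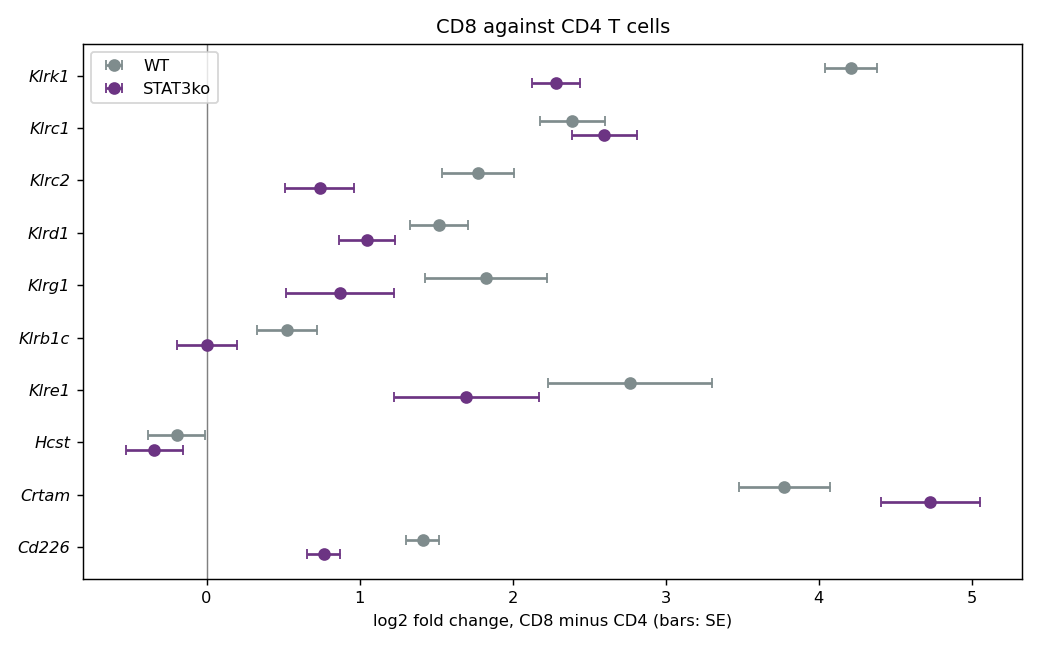
Log2 fold change of CD8 against CD4 T cells for each gene, with bars of 1 SE, in WT (grey) and STAT3ko donors (purple). Crtam and Klrk1 reach 3.78 and 4.21 in WT donors, and Hcst lies below 0 in both genotypes.

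Klrk1 (chr6:129610323-129623864, minus strand) encodes NKG2D, an activating receptor and costimulator of CD8 T cells. Its level was 11.7 and 12.2 CPM in WT CD4, 78.3 and 79.2 CPM in STAT3ko CD4, 244 and 199 CPM in WT CD8 and 432 and 335 CPM in STAT3ko CD8 libraries. The 4 groups stood in this order with no overlap between neighbours. The level of STAT3ko CD4 T cells was 6.59-fold the WT level (log2 fold change 2.72, SE 0.16). In CD8 T cells it was 1.73-fold (log2 fold change 0.79, SE 0.15, edgeR adjusted p = 0.0456, and 0.00117 with the replicate block). The adjusted p over the alternatives ran from 0.000139 to 0.272, and 5 of 17 kept the call. The WT CD8 level was 18.5-fold the WT CD4 level (log2 fold change 4.21, SE 0.17, adjusted p = 3.64e-05), and STAT3ko CD8 T cells 4.87-fold that of STAT3ko CD4 T cells (2.28, SE 0.16, adjusted p = 0.000496). Each of these comparisons uses CD4 libraries by which Klrk1 was chosen. Both of the latter calls held in all 17 alternatives.

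Hcst (chr7:30417712-30419854, minus strand) encodes DAP10, which carries the NKG2D signal to phosphoinositide 3-kinase. It was at 38.8 and 59.2 CPM in WT CD4, 50.8 and 55.6 CPM in STAT3ko CD4, 40.6 and 45.1 CPM in WT CD8 and 41.5 and 42.5 CPM in STAT3ko CD8 libraries. The 2 WT CD4 libraries alone spanned the values of the other 6. The log2 fold change of STAT3ko against WT was 0.12 (SE 0.19) in CD4 and -0.03 (SE 0.19, adjusted p = 0.960) in CD8 T cells, and that of CD8 against CD4 T cells was -0.19 (SE 0.19, adjusted p = 0.509, and 0.0483 without WT CD4 replicate 1) in WT and -0.34 (SE 0.19, adjusted p = 0.291) in STAT3ko donors.

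Receptor and adaptor can be set against each other in RPKM, which is scaled by exon length. In WT CD4 libraries Hcst was at 87.0 and 135 RPKM, 25.0 and 36.7 times the Klrk1 values of 3.48 and 3.68 RPKM. In STAT3ko CD4 libraries, with Klrk1 at 23.1 RPKM in each, the ratio was 4.91 and 5.31. In WT CD8 libraries, with Klrk1 at 73.0 and 58.6 RPKM, it was 1.26 and 1.71. In STAT3ko CD8 libraries Klrk1 was at 128 and 97.9 RPKM and was the higher of the pair, at 1.37 and 1.04 times Hcst. The adaptor was thus the more abundant transcript in 6 of the 8 libraries.

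**Figure D4:**
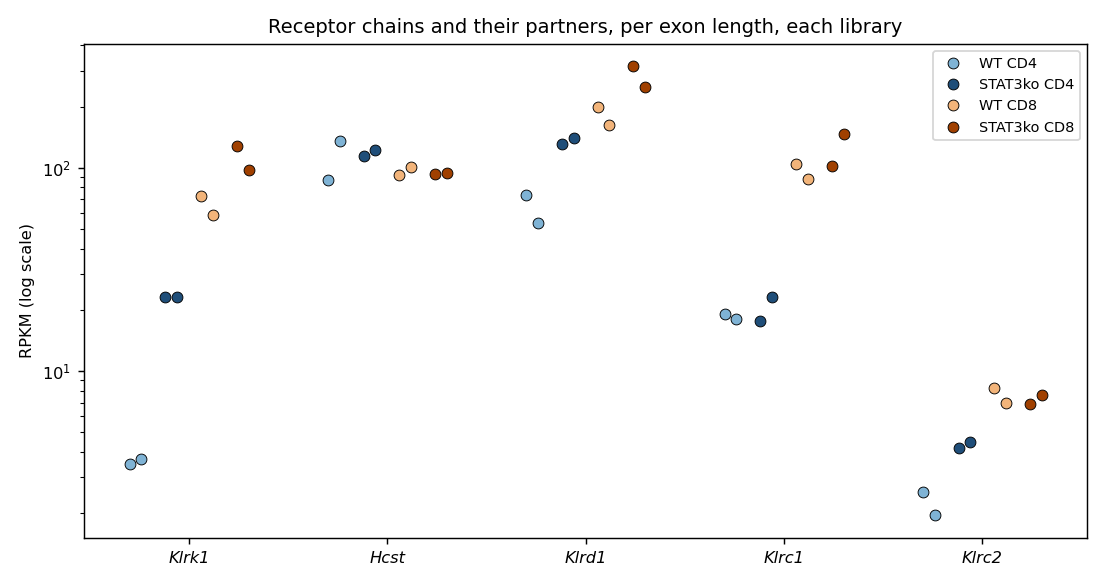
RPKM (log scale) of Klrk1 and its adaptor Hcst, and of Klrd1 and its partner chains Klrc1 and Klrc2, with 1 point for each of the 8 libraries. Klrk1 covers the range from 3.48 to 128 RPKM while Hcst stays between 87.0 and 135 RPKM, and Klrd1 is above both partner chains in all libraries.

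Klrd1 (chr6:129591810-129598775, plus strand) encodes CD94, the chain shared by the NKG2A and NKG2C receptors. Its level was 64.0 and 46.1 CPM in WT CD4, 115 and 125 CPM in STAT3ko CD4, 173 and 142 CPM in WT CD8 and 275 and 222 CPM in STAT3ko CD8 libraries. The order of the groups was that of Klrk1, again with no overlap between neighbours. The STAT3ko level was 2.18-fold that of WT in CD4 T cells (log2 fold change 1.13, SE 0.19) and 1.57-fold in CD8 T cells (0.65, SE 0.18). The CD8 difference was not called (adjusted p = 0.111, and 0.00530 with the replicate block). CD8 T cells were higher than CD4 T cells by 2.87-fold in WT (adjusted p = 0.00120) and by 2.07-fold in STAT3ko donors (adjusted p = 0.0114). The STAT3ko call was lost without STAT3ko CD4 replicate 1 (adjusted p = 0.0897), STAT3ko CD4 replicate 2 (0.0602) or STAT3ko CD8 replicate 1 (0.0768).

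Klrc1 (chr6:129666016-129678973, minus strand) encodes the inhibitory partner NKG2A. It was at 38.0 and 35.4 CPM in WT CD4, 35.6 and 47.1 CPM in STAT3ko CD4, 207 and 177 CPM in WT CD8 and 204 and 296 CPM in STAT3ko CD8 libraries. WT and STAT3ko libraries overlapped in both cell types, while each CD8 library was above each CD4 library. The log2 fold change of STAT3ko against WT was 0.17 (SE 0.21) in CD4 and 0.38 (SE 0.20, adjusted p = 0.351) in CD8 T cells. CD8 T cells had 5.24-fold the level of CD4 T cells in WT (log2 fold change 2.39, SE 0.21, adjusted p = 0.000310) and 6.05-fold in STAT3ko donors (2.60, SE 0.21, adjusted p = 0.000824), and both calls held in all 17 alternatives.

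Klrc2 (chr6:129656346-129660596, minus strand) encodes NKG2C, the activating partner. Its level was low, at 2.00 and 1.51 CPM in WT CD4, 3.30 and 3.61 CPM in STAT3ko CD4, 6.44 and 5.56 CPM in WT CD8 and 5.45 and 6.09 CPM in STAT3ko CD8 libraries. The STAT3ko level was 1.97-fold that of WT in CD4 T cells (log2 fold change 0.98, SE 0.24), and in CD8 T cells the libraries overlapped (-0.06, SE 0.22, adjusted p = 0.931). CD8 T cells were higher by 3.42-fold in WT donors (adjusted p = 0.00161). In STAT3ko donors the 1.67-fold difference was not called (adjusted p = 0.0734, and 0.0211 with the block).

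On the RPKM scale, Klrd1 was 1.71 to 7.41 times the inhibitory chain Klrc1 and 23.1 to 45.5 times the activating chain Klrc2. In CD4 libraries the Klrd1 to Klrc1 ratio was 3.86 and 2.98 for WT but 7.41 and 6.07 for STAT3ko donors, and in CD8 libraries it was 1.91 and 1.84 for WT and 3.08 and 1.71 for STAT3ko donors. Klrc1 was 7.50 and 9.23 times Klrc2 in WT CD4, 4.25 and 5.14 times in STAT3ko CD4, and 12.6 to 19.2 times in CD8 libraries. Klrc1 was the more abundant of the partner chains in all 8 libraries, within the uncertainty of reads that both genes share.

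Klre1 (chr6:129578286-129585827, plus strand) encodes a further lectin-like receptor chain of the complex, which pairs with KLRI proteins. It was near the limit of detection in WT CD4 libraries, with 8 and 5 counts (0.40 and 0.24 CPM), and reached 0.80 and 1.23 CPM in STAT3ko CD4, 3.03 and 1.35 CPM in WT CD8 and 3.62 and 3.02 CPM in STAT3ko CD8 libraries. The STAT3ko CD4 libraries were above the WT CD4 ones (log2 fold change 1.67, SE 0.55, and 0.63 with limma on log2(RPKM + 1)), while in CD8 T cells the groups overlapped (0.60, SE 0.45, adjusted p = 0.530). The WT CD8 level was 6.80-fold the WT CD4 level (log2 fold change 2.77, SE 0.54, adjusted p = 0.00842, and 1.27 with limma on log2(RPKM + 1)), a call that was lost without WT CD4 replicate 2 (adjusted p = 0.0531). Without WT CD8 replicate 1 the log2 fold change was 2.07. In STAT3ko donors the 3.24-fold difference had an adjusted p of 0.0555, and 0.00842 with the block.

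Klrg1 (chr6:122270597-122282833, minus strand) lies on the same chromosome but outside the complex and encodes an inhibitory receptor for cadherins, a marker of short-lived effector T cells. Its level was 4.44 and 2.74 CPM in WT CD4, 23.6 and 17.6 CPM in STAT3ko CD4, 15.2 and 10.2 CPM in WT CD8 and 50.0 and 25.5 CPM in STAT3ko CD8 libraries. Both STAT3ko CD4 libraries were above both WT CD8 libraries, which among the members was so for Hcst as well. The STAT3ko level was 5.74-fold that of WT in CD4 T cells (log2 fold change 2.52, SE 0.40). In CD8 T cells it was 2.96-fold (1.57, SE 0.36), a difference with an adjusted p of 0.0743, of 0.000222 with the replicate block and of up to 0.360 over the alternatives. CD8 T cells were 3.55-fold higher than CD4 T cells in WT donors (adjusted p = 0.0144), a call that was lost without WT CD4 replicate 2 (adjusted p = 0.0775) or WT CD8 replicate 1 (0.0746). In STAT3ko donors the difference was 1.83-fold (adjusted p = 0.157, and 0.00134 with the block).

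Klrb1c (chr6:128778485-128788641, minus strand) encodes the antigen by which NK cells of C57BL/6 mice are commonly recognized. It was at 16.2 and 17.2 CPM in WT CD4, 15.2 and 18.6 CPM in STAT3ko CD4, 26.4 and 21.7 CPM in WT CD8 and 19.8 and 14.1 CPM in STAT3ko CD8 libraries. Only the WT CD8 libraries stood above the rest. The log2 fold change of STAT3ko against WT was 0.02 (SE 0.20) in CD4 T cells, where its sign changed with the scaling, and -0.50 (SE 0.19, adjusted p = 0.215) in CD8 T cells. CD8 against CD4 T cells gave 0.53 (SE 0.19, adjusted p = 0.0913, and 0.0309 with the block) in WT and 0.0021 (SE 0.20, adjusted p = 0.996) in STAT3ko donors.

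Cd226, on chromosome 18, encodes DNAM-1, an activating receptor for the nectin family proteins CD155 and CD112. Its level was 97.0 and 96.7 CPM in WT CD4, 229 and 220 CPM in STAT3ko CD4, 266 and 250 CPM in WT CD8 and 406 and 358 CPM in STAT3ko CD8 libraries. It shared the order of Klrk1 and Klrd1 without overlap between neighbouring groups. The STAT3ko level was 2.32-fold the WT level in CD4 T cells (log2 fold change 1.21, SE 0.11) and 1.48-fold in CD8 T cells (0.57, SE 0.11, adjusted p = 0.0457, and 0.00135 with the block). The CD8 call was kept in 4 of 17 alternatives, with adjusted p up to 0.284. CD8 T cells were 2.66-fold higher in WT (adjusted p = 0.000196) and 1.70-fold higher in STAT3ko donors (adjusted p = 0.00459), and both calls held in all 17 alternatives.

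Crtam (chr9:40972798-41004628, minus strand) encodes a receptor for the adhesion protein CADM1 that appears on activated CD8 T cells and on a cytotoxic kind of CD4 T cell. It was at 7.23 and 11.2 CPM in WT CD4, 2.50 and 5.12 CPM in STAT3ko CD4, 119 and 135 CPM in WT CD8 and 98.0 and 106 CPM in STAT3ko CD8 libraries. Both STAT3ko libraries were below both WT libraries in each cell type, which among the members also held for Klrb1c in CD8 T cells. The STAT3ko level was 41.2% of the WT level in CD4 T cells (log2 fold change -1.27, SE 0.32, and -1.89 without STAT3ko CD4 replicate 2) and 80.3% in CD8 T cells (-0.32, SE 0.26, adjusted p = 0.577). CD8 T cells had 13.7-fold the level of CD4 T cells in WT donors (log2 fold change 3.78, SE 0.30, adjusted p = 0.000217) and 26.5-fold in STAT3ko donors (4.73, SE 0.32, adjusted p = 0.000496, and 5.35 without STAT3ko CD4 replicate 2), and both calls held in all 17 alternatives.

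Whether the effect of STAT3 loss differed between the lineages involves the CD4 libraries that picked the genes, so the differences are given as a description. The CD8 effect minus the CD4 effect was -1.93 (SE 0.22) for Klrk1, -1.03 (SE 0.32) for Klrc2, -0.95 (SE 0.53) for Klrg1, -0.65 (SE 0.15) for Cd226 and 0.95 (SE 0.41) for Crtam on the log2 scale. It was -1.07 (SE 0.71) for Klre1, -0.52 (SE 0.28) for Klrb1c, -0.47 (SE 0.26) for Klrd1, -0.15 (SE 0.26) for Hcst and 0.21 (SE 0.29) for Klrc1. Thus the 6.59-fold difference of Klrk1 in CD4 T cells stood beside 1.73-fold in CD8 T cells. Over all genes the edgeR test of this difference called 0.0%, that is 0 of 12428, with 982 genes at an unadjusted p under 0.05, while DESeq2 called 190 genes and edgeR with the replicate block 403.

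By level in RPKM, Hcst led the members in WT CD4 T cells at 111 ± 33.9 RPKM (SD, n = 2), followed by Klrd1 at 63.4 ± 13.9, Cd226 at 39.0 ± 0.355 and Klrc1 at 18.5 ± 0.708, and Klrk1 stood at 3.58 ± 0.139. In STAT3ko CD4 T cells Klrd1 led at 136 ± 6.60 RPKM, and Klrk1 stood at 23.1 ± 0.028, level with Klrc1 at 20.4 ± 3.84, since their libraries overlapped. In WT CD8 T cells Klrd1 led at 181 ± 27.0 RPKM, and Cd226, Klrc1 and Hcst, at 103 ± 5.57, 96.2 ± 11.7 and 96.0 ± 6.02, did not differ beyond their spread. In STAT3ko CD8 T cells Klrd1 was at 282 ± 46.1 RPKM, followed by Cd226 at 151 ± 15.0, Klrc1 at 124 ± 31.1 and Klrk1 at 113 ± 21.4, each of which overlapped with the next. Klre1 was the lowest of the 10 in each group, and in STAT3ko CD4 T cells its libraries overlapped with those of Crtam.

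The neighbours of Klrk1 on the chromosome were described in the same way. The NK gene complex between Klrb1a and Klra2 spans 2638 kb and holds 59 gene rows, of which 24 were tested, among them 13 of 35 Klr genes. The Klra genes, which encode the Ly49 receptors that are typical of NK cells, had 20 rows, of which 11 were at 0 in all libraries and 2 were tested. Klre1 starts 45.6 kb before Klrk1 on the chromosome and Klrc1 starts 55.1 kb after it. From the one to the other, all 6 Klr genes tested (Klre1, Klrd1, Klrk1, Klrc3, Klrc2, Klrc1) had a log2 fold change above 0 in CD4 T cells. The values ran from 0.17 for Klrc1 to 2.72 for Klrk1. All but Klrc3 are members of the set picked on this comparison, and 240 of the 786 windows of Klrc3 also occur in Klrc2. Nothing is therefore read from their shared direction. In CD8 T cells the same stretch ran from -0.06 for Klrc2 to 0.84 for Klrc3. Klrb1c starts 835 kb before Klrk1 and had values of 0.02 and -0.50. Further from Klrk1, values in CD4 T cells lay on both sides of 0, at 0.71 (SE 0.35) for Klri2, 1.92 (SE 1.07) for Klra7, 1.00 (SE 0.43) for Klra3 and 0.63 (SE 0.30) for Klrb1b, and at -0.87 (SE 1.46) for Klrh1 and -0.49 (SE 0.19) for Klrb1f, and none of these passed the test.

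**Figure D5:**
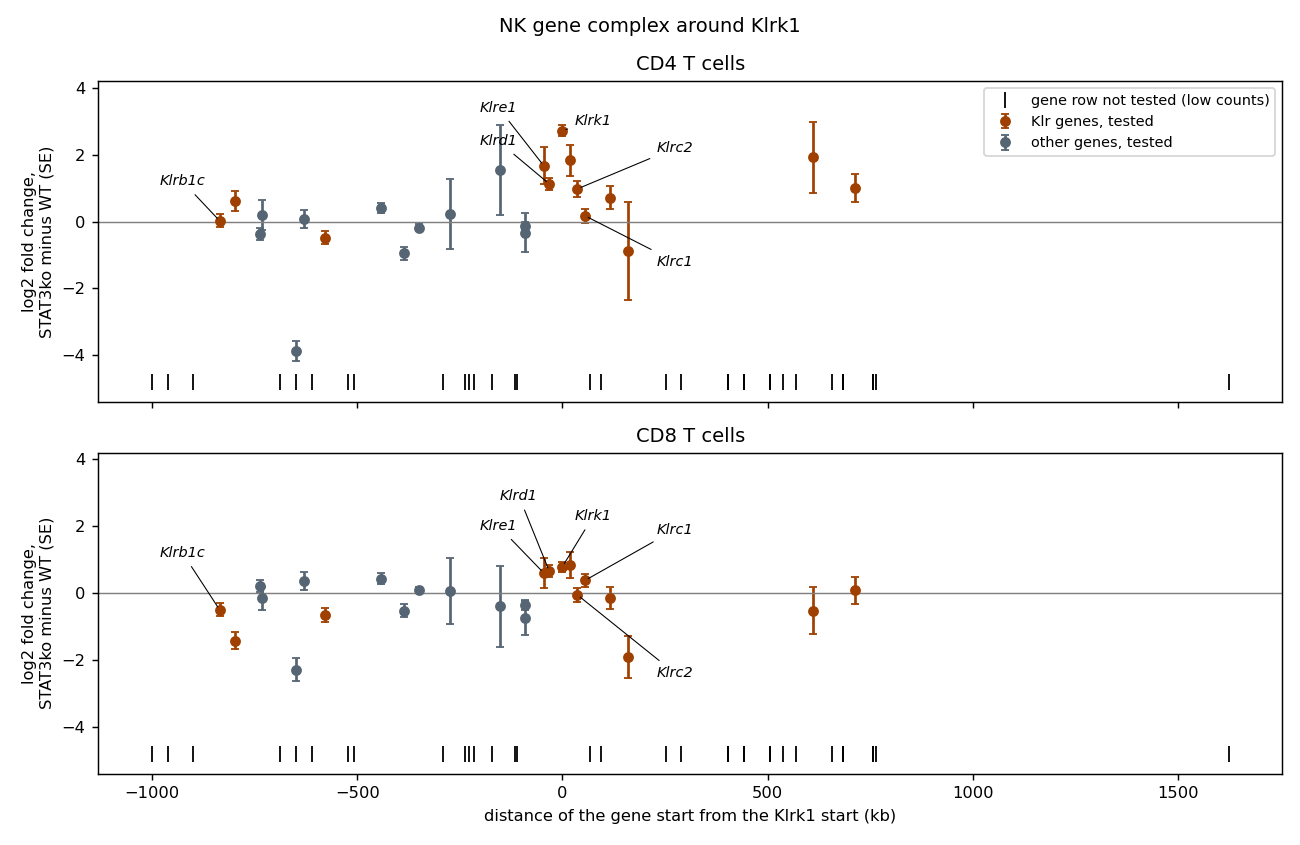
Log2 fold change of STAT3ko against WT, with bars of 1 SE, for the tested genes of the NK gene complex against the distance of their start from that of Klrk1 in kb, in CD4 (top) and CD8 T cells (bottom). Black ticks are gene rows with too few counts to test, and the members are named. The Klr genes next to Klrk1 lie at or above 0 in CD4 T cells and within 1 unit of 0 in CD8 T cells. All of these but Klrc3 are members of the set picked on the CD4 comparison.

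Of the 24 tested genes of the complex, 4 were called higher and 2 lower in STAT3ko CD4 T cells, the higher ones being Klrk1, Klrd1, Klrc2 and Klrc3, against 11.6% of all genes called and 6.54% called higher. As 3 of them are members picked on this comparison, nothing is read from the count. The lower ones were the predicted gene Gm15987, with a log2 fold change of -3.86 (SE 0.31, adjusted p = 0.000952), and 2310001H17Rik (-0.95, SE 0.20, adjusted p = 0.0212). Called in CD8 T cells were Klrk1 as higher, and Gm15987 (-2.29, SE 0.35, adjusted p = 0.0269) and Klrb1b (-1.42, SE 0.25, adjusted p = 0.0365) as lower. Over all genes, 2.07% were called there, and 1.34% as higher. In CD8 against CD4 T cells, 10 were higher and 4 lower in WT donors, against 23.8% of all genes called and 12.2% called higher. In STAT3ko donors 6 were higher and 2 lower, against 12.5% of all genes called and 5.84% called higher.

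Other NK receptor genes were called in both directions with STAT3 loss. Of 29 such genes with a row, 4 were at 0 in all libraries and 15 were tested. In CD4 T cells 3 were called higher and 2 lower in STAT3ko, against 11.6% of all genes called, with a median log2 fold change of 0.60 against 0.017 over all genes. The higher ones were Klrc3, a close copy of Klrc2 (log2 fold change 1.83, SE 0.46, adjusted p = 0.0428), Slamf7 (0.99, SE 0.20, adjusted p = 0.0184) and Cd96 (0.71, SE 0.11, adjusted p = 0.00890). The lower ones were Tigit (-0.82, SE 0.10, adjusted p = 0.00360) and Cd160 (-0.58, SE 0.13, adjusted p = 0.0299). CD96 and the inhibitory receptor TIGIT bind CD155, as does the product of Cd226. The CD8 comparison called 0 of 15 higher and 1 lower, against 2.07% of all genes, with a median of -0.15 against -0.0071. The gene called was Klrb1b, which was at 34.8 and 39.2 CPM in WT and at 10.2 and 17.4 CPM in STAT3ko libraries. Klrb1b encodes an inhibitory receptor, and 628 of its 2324 windows of 51 bases occur in another gene. Of these, 589 occur in Gm44511, which overlaps the exons of Klrb1b on the same strand and has no row among those of the complex. Fewer occur in Klrb1c (70) and Klrb1a (67). Of the windows of Klrc3, 35.5% occur in another gene, most often Klrc2, which makes its counts uncertain. With the block 0 were called higher and 5 lower in CD8 T cells, where that fit called 2258 of 12428 genes, 980 of them lower.

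CD8 T cells of WT donors were higher than CD4 T cells in 8 of the 15 and lower in 5, against 23.8% of all genes called, with a median of 0.99 against 0.0011. The highest were Klrh1, with 2 and 0 counts in WT CD4 and 62 and 53 counts in WT CD8 libraries (adjusted p = 0.00322), Cd244a (log2 fold change 4.43, SE 0.40, adjusted p = 0.000337), Klrb1b (3.96, SE 0.29, adjusted p = 0.000177) and Klra7, a Ly49 gene with 2 and 1 counts in WT CD4 and 36 and 18 counts in WT CD8 libraries (adjusted p = 0.0224). In STAT3ko donors 4 were higher and 5 lower, against 12.5% of all genes called, with a median of 0.13 against 0.0018. Cd160, which encodes a receptor of killer cells, was called higher in CD8 T cells of both genotypes, with log2 fold changes of 2.09 (SE 0.13) and 2.46 (SE 0.14), as were Klrh1, Cd244a and Klrb1b.

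The adaptors of these receptors and the signalling proteins below them were taken as a further list. Of its 22 genes 21 were tested, and in STAT3ko CD4 T cells 1 was called higher and 1 lower, a share below the 11.6% of all genes called, with a median of -0.17 against 0.017. These were Pik3r1, the regulatory subunit of the phosphoinositide 3-kinase that DAP10 binds (log2 fold change 0.94, SE 0.11, adjusted p = 0.00275), and Pik3cd, a catalytic subunit (-0.46, SE 0.10, adjusted p = 0.0216). Pik3r1 alone was called in CD8 T cells, higher in STAT3ko (0.60, SE 0.11, adjusted p = 0.0429), against 2.07% of all genes, and the median was -0.11 against -0.0071. Between the lineages, 5 were higher and 5 lower in CD8 T cells of WT donors, against 23.8% of all genes called, with a median of -0.13 against 0.0011. The largest changes were those of Fcer1g (2.15, SE 0.57, adjusted p = 0.0301), an adaptor of activating receptors, Plcg2 (1.82, SE 0.29, adjusted p = 0.00371), the kinase gene Syk (1.53, SE 0.31, adjusted p = 0.00973) and Sh2d1a, which encodes the adaptor SAP (-0.82, SE 0.16, adjusted p = 0.00969). In STAT3ko donors 3 were higher and 3 lower, against 12.5% of all genes called, with a median of -0.21 against 0.0018. The largest were Plcg2 (1.60, SE 0.30, adjusted p = 0.0140), Cd247, which encodes the CD3 zeta chain (-0.60, SE 0.12, adjusted p = 0.0163), the phosphatase gene Ptpn6 (-0.46, SE 0.11, adjusted p = 0.0386) and Pik3r1 (0.43, SE 0.11, adjusted p = 0.0432).

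Ligands of these receptors had 15 rows, of which 8 were tested. Ulbp1, a ligand of NKG2D, was the only one called in STAT3ko CD4 T cells, close to the 11.6% of all genes called, and the median of the list was 0.37 against 0.017. It was at 5.54 and 4.16 CPM in WT CD4, 19.8 and 19.9 CPM in STAT3ko CD4, 14.4 and 12.8 CPM in WT CD8 and 25.9 and 21.5 CPM in STAT3ko CD8 libraries. The ligand thus stood in the same order of groups as its receptor Klrk1 but for STAT3ko CD4 T cells, which were above WT CD8 T cells. The STAT3ko level was 4.10-fold that of WT in CD4 T cells (log2 fold change 2.04, SE 0.18, adjusted p = 0.00114). The 1.74-fold difference in CD8 T cells had an adjusted p of 0.0606, and of 0.00282 with the block. No ligand was called there without the block. With it 2 were called higher, where that fit called 1278 of 12428 genes higher. CD8 T cells of WT donors were higher in Ulbp1 (1.49, SE 0.18, adjusted p = 0.00107) and lower in Pvr, which encodes CD155 (-0.67, SE 0.13, adjusted p = 0.00749), and in H2-T23, which encodes Qa-1 (-0.33, SE 0.10, adjusted p = 0.0468). Pvr (-0.59, SE 0.13, adjusted p = 0.0224) and H2-T23 (-0.55, SE 0.10, adjusted p = 0.0122) were lower in CD8 T cells of STAT3ko donors as well. The medians of the list were 0.19 for STAT3ko against WT in CD8 T cells and -0.22 and -0.17 for CD8 against CD4 T cells in WT and STAT3ko donors, where 23.8% and 12.5% of all genes were called.

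Across the 8 libraries, the genes most like Klrk1 in log2 CPM, out of 8758 whose log2 CPM averaged at least 3, were Dapk2 (Pearson r = 0.998), Gzmk (0.997), Ccnb2 (0.997), Nrm (0.996) and Plk4 (0.996). Gzmk encodes a granzyme of killer cells, and Ccnb2 and Plk4 encode proteins of the cell division cycle. Gzmk was at 18.8 and 19.0 CPM in WT CD4 and 67.5 and 72.7 CPM in STAT3ko CD4 libraries. Of the members, Cd226 (0.982), Klrd1 (0.974), Klrc2 (0.968) and Klre1 (0.962) followed Klrk1 most closely, then Klrc1 (0.869), Klrg1 (0.861) and Crtam (0.708), whereas Klrb1c (0.339) and Hcst (-0.389) did not. These values describe 4 groups of paired libraries and are no test.

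Because NK cells carry these receptors too, the markers of other cells were read beside the members. NK cells lack TCRβ, on which the cells were sorted, but NKT cells carry it. Of the 12 NK cell markers, Klra4 and Klra8 were at 0 in all libraries, Ncr1 was at 0 to 0.25 CPM and Tyrobp at 0.43 to 4.21 CPM. Others of the list were present. Itga2 was at 22.6 and 19.1 CPM in WT CD4 and 32.1 and 28.2 CPM in STAT3ko CD4 libraries. In WT CD8 libraries Fcer1g was at 13.6 and 21.2 CPM and Klrb1b at 34.8 and 39.2 CPM. Spry2 was at 7.61 to 25.3 CPM. The NK cell list summed to 67.1 to 79.5 CPM in WT CD4, 136 to 153 CPM in STAT3ko CD4, 229 CPM in both WT CD8 and 217 to 231 CPM in STAT3ko CD8 libraries. Itgam, an integrin chain that activated T cells also carry, made up most of the CD4 difference, at 36.9 and 22.2 CPM in WT CD4 and 80.3 and 86.0 CPM in STAT3ko CD4 libraries. In the list for NKT and gamma-delta T cells, with 7 of 7 rows above 0 in some library, the defining Zbtb16 was at 0.10 to 0.85 CPM and Sox13 at 0 to 0.05 CPM. That list summed to 347 to 409 CPM in WT CD4, 534 to 557 CPM in STAT3ko CD4, 435 to 451 CPM in WT CD8 and 505 to 526 CPM in STAT3ko CD8 libraries, nearly all of it from Cxcr6, which effector T cells also carry. The 8 macrophage markers summed to 22.4 to 57.3 CPM in replicate 1 and 72.3 to 139 CPM in replicate 2 libraries, in each group higher in replicate 2. The 6 B cell markers summed to 103 to 124 CPM in WT CD4, 152 to 171 CPM in STAT3ko CD4, 43.9 to 49.9 CPM in WT CD8 and 38.0 to 55.3 CPM in STAT3ko CD8 libraries. Most of it came from Cd22, at 106 and 91.7 CPM in WT CD4 and 149 and 168 CPM in STAT3ko CD4 libraries. Pax5 was at 16.9 and 9.59 CPM in WT CD4 and at 0.20 and 0.50 CPM in STAT3ko CD4 libraries. Cd79b was at 0.90 and 1.23 CPM in WT CD4, 2.10 and 2.47 CPM in STAT3ko CD4 and 11.5 to 12.9 CPM in CD8 libraries. Ms4a1 and Cd79a were at 0.34 CPM or less in each library. The part of such cells in the differences of the members was not tested.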

How the data were processed

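The labels name spleen CD4 and CD8 T cells, and the study's methods give 51-base single-end reads. The growth and treatment fields of the labels describe adipogenic differentiation of a mesenchymal cell line and were not used, and the library kit of the labels differs from that of the methods. With STAR the authors mapped them to mm10, and htseq-count gave the reads of each RefSeq gene, and the deposited counts are raw read counts per gene. The deposited RPKM values are counts that the authors scaled by exon length and library size. Whether the counting used strand, or how it treated reads with several matches, was not given in the sources used here. The zeros of both tables coincided in 100% of values.

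Groups came from the labels. Low genes were removed with filterByExpr at a minimum count of 10, leaving 12428 of the 17623 rows with a count, the 10 members among them. TMM factors lay between 0.982 and 1.03, and the counts were fitted with edgeR 4.0.16 (R 4.3.3, glmQLFit and glmQLFTest, 1 mean for each group), and a call is a two-sided Benjamini-Hochberg adjusted p under 0.05 over all genes tested. The members, the gene lists, the naming rule and the tests were chosen with earlier results of these data known. Besides the members, the text names the called genes with the 4 largest changes of each list, genes of the NK gene complex, and the 5 genes most like Klrk1. The labels give each group replicates 1 and 2, and the differences between replicates correlated at 0.424 to 0.671 between groups over 12428 genes, so that the numbers were taken to pair the libraries, although the labels name no batch. A fit with the replicate number as a block was therefore run beside the main one. Replicates differed by more than sampling noise, with 48.0% to 57.8% of genes further apart than 2 Poisson SD. DESeq2 1.42.0 and limma 3.58.1, on log2(RPKM + 1) and log2(RPKM + 0.1), served as alternatives. The steps were tested on simulated data with known changes. Each simulated library was drawn independently, without a shift shared by replicate number and without a fit of the block. The simulation therefore cannot tell how the tests behave with such a shift. Promoter windows came from RefSeq (GRCm38.p6), and transcripts, exons and gene overlaps from GENCODE (GRCm38), while positions of members are those of the deposited counts table.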

Additional observations from a re-analysis of the deposited data

How the results depend on the processing

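Of 840 comparisons of a value with its alternative, 740 kept direction and side of the threshold, 52 lost the call, 26 gained one and 22 changed sign. The members called in CD8 T cells (2) became 1 with library totals, 4 with DESeq2, 4 with the replicate block, and 0 with the 4 CD8 libraries alone or with limma on log2(RPKM + 1), on log2(RPKM + 0.1) and without a filter, and they were 0 to 0 with any library left out. In CD4 T cells, where 6 were called, leaving out a library gave 3 to 5, with 3 without WT CD4 replicate 2 or STAT3ko CD4 replicate 1, and the block gave 7, with Klre1 added. For CD8 against CD4 T cells in STAT3ko donors, 5 became 8 with the replicate block. For the difference of the effects, 0 became 2 with DESeq2, 1 without a filter and 3 with the block. The CD4 comparison and this difference hold the values that picked the genes, so these counts support nothing. For STAT3ko against WT in CD8 T cells and for CD8 against CD4 T cells, the block changed no other call of a member than those given with its value.

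Only differences near 0 changed sign. The log2 fold change of Klrb1c in CD4 T cells (0.02) was -0.011 with library totals, -0.0074 without a filter and -0.011, -0.013 and -0.011 with limma (pseudocounts 1, 0.1, and 1 without a filter). That of CD8 against CD4 T cells in STAT3ko donors (0.0021) was -0.0069 with totals, -0.011 with the block, and -0.0023, -0.0046 and -0.0023 with limma. With a library left out, the ranges were -0.044 to 0.36 (Klrc1), -0.13 to 0.16 (Klrb1c) and -0.15 to 0.46 (Hcst) in CD4 T cells, and -0.16 to 0.054 (Klrc2) and -0.10 to 0.050 (Hcst) in CD8 T cells. They were -0.47 to 0.14 (Hcst) and -0.27 to 0.23 (Klrb1c) for CD8 against CD4 T cells in WT and STAT3ko donors, and -0.088 to 0.46 (Klrc1) and -0.49 to 0.12 (Hcst) for the difference of the effects. The cause of these changes was not tested, and a group left with 1 library was assumed to vary like the others.

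Over all genes, the calls in CD4 T cells (1444) were 3747 with the block, 950 with the 4 libraries alone and 412 to 1320 with a library left out. In CD8 T cells (257) they were 2258 with the block, 885 with DESeq2, 454 without a filter, 20 with the 4 libraries, 67 with limma without a filter and 7 to 241 with a library left out. For CD8 against CD4 T cells they were 5232 with the block, 1937 with the 4 libraries and 1575 to 2573 with a library left out in WT donors (2960), and 3689 and 457 to 1605 in STAT3ko donors (1555). For the difference (0) they were 190 with DESeq2, 44 without a filter, 403 with the block, and 13 and 19 with limma on log2(RPKM + 1) with and without a filter. A fit of 4 libraries alone was not run for the difference. Klra7, Klrh1, Klrc3, Klre1 and Klrc2 had 103 to 746 counts over all libraries, so their values are limited by depth, and the effect on Klrc1, Klrc2 and Klrb1c of reads shared with other genes was not measured.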
